A study of Homo sapiens with 12 samples.

Results

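BMP and TGF-beta signalling genes were followed in HCT116 cells, a human colorectal cancer line, after the kinases MEK1/2 had been inhibited. The group held 10 genes out of the 15798 gene symbols measured, chosen by name: the ligands BMP4 and TGFB1, the signal transducers SMAD2, SMAD3 and SMAD4, the inhibitory SMAD6 and SMAD7, and the target genes ID1, ID2 and ID3. One set of dishes received 100 nM of the MEK1/2 inhibitor trametinib and the other only the solvent DMSO, both for 24 h, and all cells were given the translation inhibitor cycloheximide shortly before lysis. Ribosome protected fragments (footprints) and randomly fragmented input RNA were sequenced, with 3 libraries of each kind per treatment and 12 in all. The study used this experiment to ask which mRNAs change in abundance and which change in translation when the Ras-MAPK pathway is blocked. All cells came from one line and from bulk lysates, in which fewer cells making an mRNA and less mRNA per cell cannot be told apart.

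Ligands of the TGF-beta superfamily bind pairs of type I and type II serine/threonine kinase receptors on the cell surface. TGF-beta and activin receptors phosphorylate SMAD2 and SMAD3, BMP receptors phosphorylate SMAD1, SMAD5 and SMAD9, and either set joins SMAD4 and moves to the nucleus to bind DNA at short SMAD boxes. SMAD6 and SMAD7 are induced by the pathway and block it, and the ID genes are its classical BMP targets: ID proteins lack a DNA-binding basic region and keep bHLH transcription factors off DNA. In the intestine BMP signalling is strongest towards the tops of the crypts and is linked to differentiation. HCT116 cells are known to carry frameshift mutations in TGFBR2 that impair TGF-beta reception, while their BMP branch is held to be intact.

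Total counts ranged from 2276693 to 2845568 per input library and from 10127477 to 19181588 per footprint library, so that input was the less precise assay. Of 10 genes chosen as output of the ERK pathway, 10 fell in input and 10 in footprints, against 16.8% and 25.6% of all genes tested. Their median log2 change was -4.74 in input and -5.13 in footprints. Most of the 10 passed the filter on low counts only through DMSO input, where they were higher. Their being called is thus not independent of the filter. All 5 epithelial markers were detected, and their summed normalized counts lay between 29200 and 44400 in DMSO input and between 48900 and 61100 in trametinib input. Leukocyte markers summed to at most 2.57 in input, where 4 of 5 had 0 counts in each group, and to at most 11.1 in footprints. The summed normalized counts of 5 endothelial and fibroblast markers lay between 67.0 and 86.6 in DMSO input and between 176 and 208 in trametinib input, with COL3A1 and VWF higher, both of which passed the filter on low counts only through trametinib input, and 2 of the 5, PECAM1 and DCN, at 0 counts in trametinib input. In footprints the sums were 40.9 to 54.7 and 131 to 204. Their part in the results was not tested. The DMSO libraries numbered 1 stood apart: their deviations from the group means correlated at 0.816 between input and footprints over 7669 genes, against 0.343 or less in the other 5 same-numbered pairs.

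The DNA just upstream of the ID genes, SMAD6 and SMAD7 is shown because 4 of these 5 genes rose most among the members. Each sequence holds the 250 bases before the RefSeq transcription start in GRCh38.p14, read 5' to 3' on the strand of the gene: chr20:31605039-31605288 on the plus strand for ID1, chr2:8681806-8682055 on the plus strand for ID2, chr1:23559502-23559751 on the minus strand for ID3, chr15:66701986-66702235 on the plus strand for SMAD6 and chr18:48950966-48951215 on the minus strand for SMAD7. Capitals mark the SMAD box GTCT on either strand, which reads AGAC where it lies on the other strand.
ID1: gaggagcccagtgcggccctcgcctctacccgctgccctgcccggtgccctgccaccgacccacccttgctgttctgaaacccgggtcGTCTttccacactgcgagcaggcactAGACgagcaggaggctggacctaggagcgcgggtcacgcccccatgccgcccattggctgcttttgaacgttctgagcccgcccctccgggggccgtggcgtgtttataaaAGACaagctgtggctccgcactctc
ID2: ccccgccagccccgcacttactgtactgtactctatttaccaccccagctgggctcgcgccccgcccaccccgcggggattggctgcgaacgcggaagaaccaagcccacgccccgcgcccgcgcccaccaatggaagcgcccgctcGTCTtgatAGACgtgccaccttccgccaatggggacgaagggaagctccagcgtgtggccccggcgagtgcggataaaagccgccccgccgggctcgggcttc
ID3: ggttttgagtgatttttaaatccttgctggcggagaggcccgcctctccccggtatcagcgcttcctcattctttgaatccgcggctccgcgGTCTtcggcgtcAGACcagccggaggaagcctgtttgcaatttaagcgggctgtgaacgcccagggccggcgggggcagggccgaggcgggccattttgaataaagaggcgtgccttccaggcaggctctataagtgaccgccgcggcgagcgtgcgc
SMAD6: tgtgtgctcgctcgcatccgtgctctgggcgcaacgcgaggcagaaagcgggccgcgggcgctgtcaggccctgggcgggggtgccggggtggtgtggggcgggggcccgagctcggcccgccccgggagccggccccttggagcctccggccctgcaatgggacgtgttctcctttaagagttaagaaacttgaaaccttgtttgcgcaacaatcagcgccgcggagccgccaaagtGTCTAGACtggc
SMAD7: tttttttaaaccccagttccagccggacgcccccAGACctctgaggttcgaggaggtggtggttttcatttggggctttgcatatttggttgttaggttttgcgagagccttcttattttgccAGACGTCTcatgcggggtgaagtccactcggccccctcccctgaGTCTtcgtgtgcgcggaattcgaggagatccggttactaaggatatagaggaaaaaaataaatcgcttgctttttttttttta

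GTCT was present on at least 1 strand in 77.5% of the 35116 promoter windows of this length. It occurred 3 times upstream of ID1, 2 times upstream of ID2, ID3, SMAD6 and BMP4, 4 times upstream of SMAD7 and 1 time upstream of SMAD2, with 0 matches for SMAD3, SMAD4 and TGFB1. The BMP4 window belongs to a start that lies inside the gene, 1775 bases from that of the canonical transcript and the nearest of 3 RefSeq windows to it, so it describes an alternative start. The windows of the other members end directly before the canonical start. The palindrome GTCTAGAC, which consists of GTCT followed directly by AGAC and so counts as both SMAD6 matches, was found in 64 windows or 0.182%. In the SMAD6 window it began 12 bases before the transcription start. The 6-base GGCGCC, present in 16.4% of all windows, was found upstream of BMP4, SMAD2, SMAD3 and SMAD4. These matches describe letters, and factor binding was not measured.

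Among the 10 members, 5 rose in input RNA (ID2, ID3, SMAD6, SMAD7 and BMP4) and 0 fell, at an adjusted p under 0.05 in edgeR's quasi-likelihood test with Benjamini-Hochberg adjustment over the 10663 genes tested. Over all tested genes the test called 15.4% higher and 16.8% lower, or 32.1% in either direction. At an unadjusted p under 0.05 the count of members that were lower was 0 as well, against 21.9% of all genes, and DESeq2 and limma-trend also called 0. In footprints 7 members rose, the same 5 with SMAD2 and SMAD4, and 1, TGFB1, fell, against 23.9% and 25.6% of all genes, or 49.4% together. Footprint changes are relative to the other mRNAs, and the study reported that global translation fell in these cells under trametinib. A rise in footprints therefore need not be a rise in absolute protein synthesis, which these libraries do not measure. ID1 and SMAD3 passed the threshold in neither assay. The members' median log2 change was 0.70 in input and 0.87 in footprints, beside -0.00 and -0.01 over all genes tested. Every rise in input was also a separation of the libraries: in 5 members all trametinib values lay above all DMSO values, as they did in 23.2% of all genes, and in footprints this held for 7 members against 29.3%. In TGFB1 all trametinib footprint values lay below the DMSO values, as in 30.3% of all genes. Of the members, SMAD7 passed the filter on low counts only through trametinib input, where it was higher. The member counts and medians that include SMAD7 are therefore not independent of the filter.

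**Figure D1:**
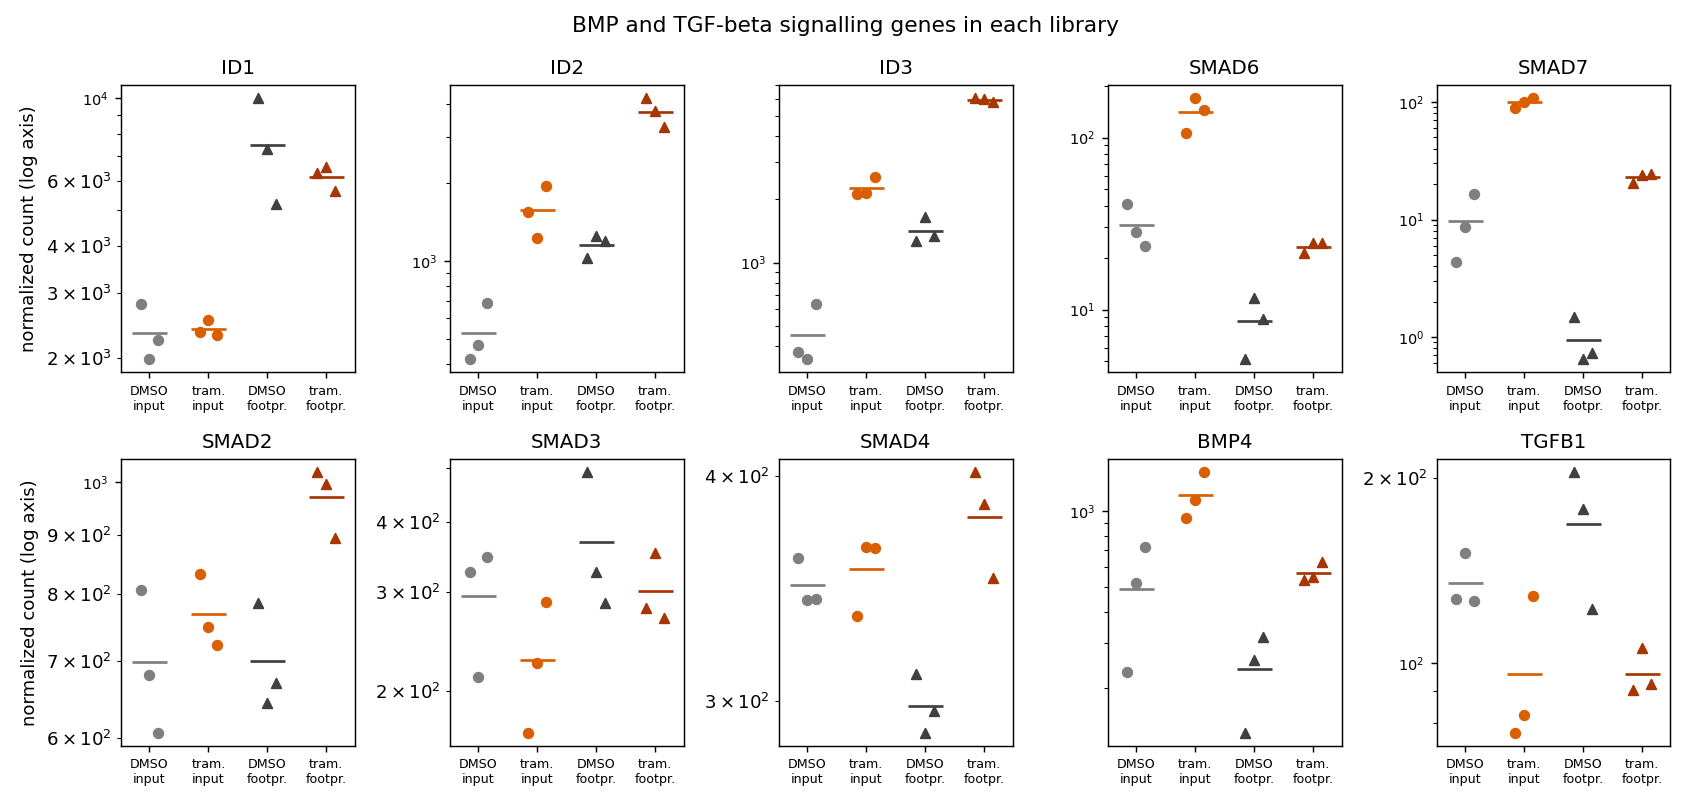
Normalized counts (log axis, a separate range in each panel) of the 10 genes in each of the 12 libraries, as circles for input and triangles for footprints, with a bar at the mean of 3 libraries. ID2, ID3, SMAD6, SMAD7 and BMP4 separate by treatment in both assays, ID1 and SMAD3 overlap, and TGFB1 is lower in trametinib footprints.

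The ligands changed in opposite directions. BMP4, on chr14:53949736-53958761 (minus strand, GRCh38), encodes a BMP ligand that signals through BMP receptors. In input its normalized counts were 230.8, 520.7 and 721.1 in DMSO and 941, 1107 and 1429 in trametinib. In footprints they were 133, 258.6 and 318.9 in DMSO and 533.9, 547.7 and 631.3 in trametinib. The groups did not overlap in either assay, and the lowest DMSO value came each time from the libraries numbered 1. The log2 change was 1.25 (SE 0.31, adjusted p = 0.00814) in input and 1.27 (SE 0.27, adjusted p = 0.00398) in footprints, a 2.38-fold and a 2.42-fold rise. Without DMSO replicate 1 the change was 0.91 in input and 0.98 in footprints, still past the threshold.

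TGFB1, on chr19:41301587-41353922 (minus strand), encodes the ligand of the TGF-beta branch, which is secreted in a latent complex. In input its normalized counts were 127.3, 151.2 and 126.4 in DMSO and 77.0, 82.4 and 128.5 in trametinib, so that 1 trametinib library lay among the DMSO libraries. In footprints the values were 204.8, 177.8 and 122.4 in DMSO against 90.3, 105.6 and 92.3 in trametinib, with all trametinib libraries lower. The footprint change of -0.81 (SE 0.20) passed the threshold with an adjusted p of 0.009, and the input change of -0.49 (SE 0.24) did not, with an adjusted p of 0.147. This difference between the assays was itself not significant, as given with the ribosome densities.

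SMAD7 showed the steepest rise of the 10 genes in both assays. It lies on chr18:48919853-48950965 (minus strand), and its product binds activated type I receptors and recruits ubiquitin ligases to them. The raw footprint counts were 4, 1 and 2 in the DMSO libraries and 66, 58 and 51 in the trametinib libraries. In input, 2, 4 and 7 reads were counted in DMSO and 37, 39 and 42 in trametinib. Nearly all reads of this gene thus came from treated cells, and it passed the filter on low counts only through the trametinib input libraries, so that its being called is not independent of the filter. The summed counts, scaled by the size factors, were 10.3-fold higher in input (95% counting interval 5.79 to 19.9) and 22.3-fold higher in footprints (10.6 to 56.4), intervals that cover counting error only. In the fit the log2 change was 3.33 (SE 0.37, adjusted p = 2.62e-05) in input, rank 28 of 10663 by change, and 4.43 (SE 0.33, adjusted p = 1.31e-05) in footprints, rank 13.

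SMAD6, on chr15:66702236-66782849 (plus strand), encodes the inhibitory SMAD that acts mainly on the BMP branch. Its normalized input counts were 40.98, 28.1 and 23.4 in DMSO and 105.9, 169.8 and 144 in trametinib. Its footprint counts on the same scale were 5.16, 11.7 and 8.85 in DMSO and 21.2, 24.2 and 24.3 in trametinib. All treated libraries exceeded all controls in both assays. SMAD6 rose by 2.17 on the log2 scale in input (SE 0.29, adjusted p = 1.3e-04) and by 1.49 in footprints (SE 0.28, adjusted p = 0.0023). Together the inhibitory pair reached a summed normalized input count of 40.6 ± 4.34 under DMSO and 239 ± 39.3 under trametinib (SD, n = 3), and 9.53 ± 2.87 against 46.0 ± 3.95 in footprints.

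SMAD2, SMAD3 and SMAD4, the signal transducers among the members, moved little beside the inhibitory SMADs. SMAD2, on chr18:47808957-47931146 (minus strand), carries the TGF-beta and activin signal. Its input counts overlapped between groups, at 806.7, 680.6 and 606.4 in DMSO and 832.7, 748.8 and 722.4 in trametinib, with a log2 change of 0.14 (SE 0.16, adjusted p = 0.515). In footprints the values of 785.4, 643.6 and 669.8 in DMSO lay below those of 1021, 996.8 and 893.9 in trametinib, and SMAD2 rose by 0.47 (SE 0.12, adjusted p = 0.0104). SMAD4, on chr18:51028528-51085045 (plus strand), is the common partner of all receptor-activated SMADs. In input it stood at 360.2, 341.4 and 341.8 in DMSO and 334.5, 365.4 and 365.1 in trametinib, a change of 0.04 (SE 0.16, adjusted p = 0.884). In footprints it stood at 310.5, 287.9 and 296 in DMSO and 402.4, 386.2 and 351.1 in trametinib, and rose by 0.35 (SE 0.10, adjusted p = 0.021). Both footprint rises were small and separated the groups, yet each depended on single libraries. The SMAD4 adjusted p was 0.0562 without DMSO footprint replicate 2, 0.109 without trametinib footprint replicate 1 and 0.0796 without trametinib footprint replicate 2, and that of SMAD2 was 0.0548 without trametinib footprint replicate 1.

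SMAD3, on chr15:67063763-67195173 (plus strand), is the DNA-binding partner of SMAD2 in the TGF-beta branch. Its normalized counts were 325.7, 211.7 and 346.5 in DMSO input and 168.5, 223.9 and 287.9 in trametinib input. In footprints they were 491.4, 325.7 and 287.2 in DMSO and 281.1, 352.5 and 269.3 in trametinib. The groups overlapped in both assays. The log2 change was -0.37 in input (95% interval -0.89 to 0.15, adjusted p = 0.261) and -0.29 in footprints (-0.76 to 0.18, adjusted p = 0.267). Relative to the summed counts of SMAD2, SMAD3 and SMAD4, those of SMAD6 and SMAD7 were 0.0303 ± 0.000487 in DMSO input and 0.177 ± 0.0285 in trametinib input (SD, n = 3), and 0.00722 ± 0.00286 against 0.0280 ± 0.00387 in footprints, with no overlap between treatments. The exact two-sided permutation test gave p = 0.1 in each assay, the smallest value that 3 against 3 libraries allow.

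The ID genes did not move as one. ID3, on chr1:23557926-23559501 (minus strand), and ID2, on chr2:8678845-8684461 (plus strand), rose in both assays, and ID1, on chr20:31605283-31606515 (plus strand), did not pass the threshold in either. For ID3 the normalized input counts were 375.3, 347.8 and 632.2 in DMSO and 2113, 2156 and 2548 in trametinib. The ID3 footprint counts were 1270, 1655 and 1334 in DMSO and 6086, 6021 and 5826 in trametinib. The treated libraries all lay several times above the controls. ID3 rose by 2.34 on the log2 scale in input (SE 0.22, adjusted p = 5.09e-06) and by 2.08 in footprints (SE 0.13, adjusted p = 5.64e-06), or 5.06-fold and 4.21-fold.

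For ID2 the input values were 418.5, 475.3 and 688.4 in DMSO and 1543, 1225 and 1938 in trametinib. Its footprint values were 1029, 1242 and 1190 in DMSO and 4238, 3766 and 3273 in trametinib, again without overlap. ID2 rose by 1.58 in input (SE 0.22, adjusted p = 1.41e-04) and by 1.71 in footprints (SE 0.14, adjusted p = 1.97e-05). For ID1 the input values were 2796, 1990 and 2238 under DMSO against 2349, 2527 and 2316 under trametinib. In footprints ID1 had 10030, 7313 and 5201 in DMSO and 6317, 6530 and 5630 in trametinib. The spread of the DMSO footprint libraries enclosed the treated ones, and the highest value was in replicate 1. The ID1 change was 0.04 in input (95% interval -0.29 to 0.38, adjusted p = 0.869) and -0.29 in footprints (-0.79 to 0.21, adjusted p = 0.303). Without DMSO footprint replicate 3 the ID1 footprint change was -0.49 with an adjusted p of 0.0408, and without DMSO footprint replicate 1 it was -0.01 with an adjusted p of 0.944, so that single DMSO libraries decided its size and on which side of the threshold ID1 fell.

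The make-up of the ID pool changed accordingly, a measure that needs no scaling between libraries. In DMSO footprints ID1 took 81.4%, 71.6% and 67.3% of all reads of ID1, ID2 and ID3, and in trametinib footprints 37.96%, 40.02% and 38.2%. In input the ID1 share was 77.9%, 70.7% and 62.9% in DMSO and 39.1%, 42.8% and 34.1% in trametinib. The mean share was thus 73.4% ± 7.19 against 38.7% ± 1.12 in footprints and 70.5% ± 7.50 against 38.6% ± 4.38 in input (SD, n = 3). The ID3 share of footprint reads went from 14.6% ± 3.76 to 37.7% ± 1.64 and the ID2 share from 12.0% ± 3.53 to 23.6% ± 1.68. Per ID1 read there were 0.203 ± 0.0680 ID3 reads in DMSO footprints and 0.973 ± 0.0571 in trametinib footprints, and 0.197 ± 0.0766 against 0.951 ± 0.131 in input. The ratio of ID3 to ID2 reads also separated the treatments, at 0.849 ± 0.102 and 1.48 ± 0.243 in input and at 1.23 ± 0.106 and 1.60 ± 0.172 in footprints. Each of these ratios gave the lowest possible exact two-sided permutation p of 0.1. The normalized sum of the ID genes was 3320 ± 439.7 in DMSO input against 6238 ± 490.8 in trametinib input, and 10090 ± 2305 against 15900 ± 1023 in footprints.

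**Figure D2:**
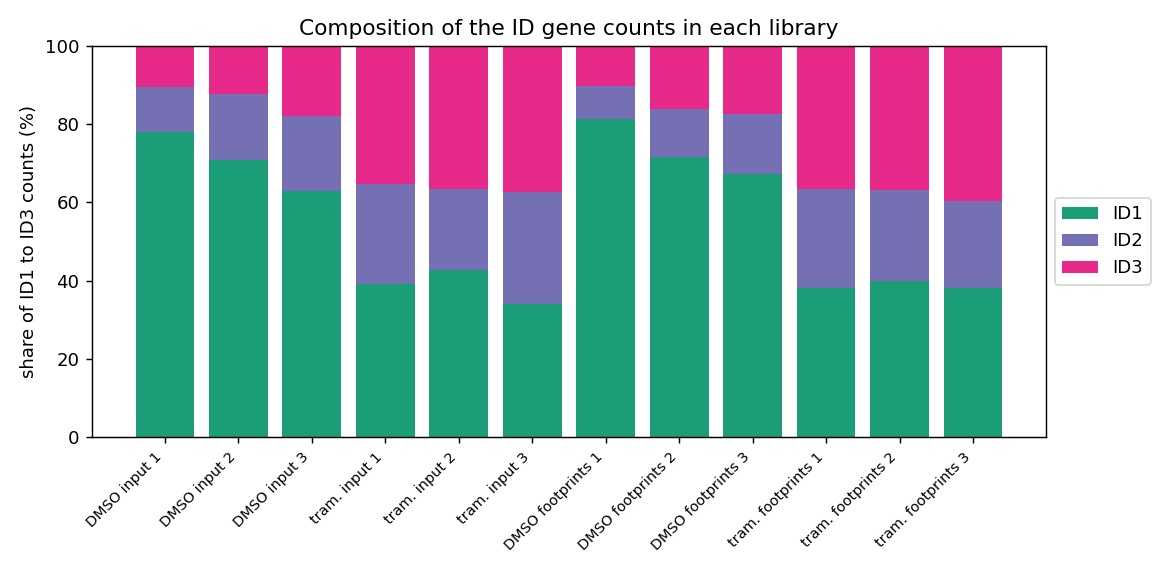
Share of the summed ID1, ID2 and ID3 counts (percent, bars from 0 to 100) taken by each gene in each of the 12 libraries. ID1 takes between 62.9% and 81.4% in the 6 DMSO libraries and between 34.1% and 42.8% in the 6 trametinib libraries.

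Levels were compared between genes as CPM (counts scaled to library size) per kilobase of coding sequence. In DMSO input the ID genes led, with ID1 at 846.5 ± 124.3, ID2 at 222.1 ± 64.5 and ID3 at 214.1 ± 78.01 (SD, n = 3), and ID2 and ID3 did not differ beyond their spread. SMAD2 at 83.8 ± 9.75 and BMP4 at 68.3 ± 35.5 came next and overlapped in their spread, followed by SMAD3 at 38.9 ± 9.41 and SMAD4 at 35.4 ± 0.0770, which did so too. TGFB1 reached 19.5 ± 2.35, SMAD6 3.48 ± 0.916 and SMAD7 1.30 ± 0.836. ID1 stood at the 98.5th percentile of the 10587 tested genes with a coding length, and SMAD6 and SMAD7 at the 7.67th and 1.83rd. In trametinib input ID3 was the highest member with 1075 ± 109.9, above ID1 at 871 ± 49.3 and ID2 at 658.3 ± 145.8. BMP4 at 159.9 ± 34.0 then exceeded SMAD2 at 92.6 ± 6.64, and SMAD6 at 15.9 ± 3.78, TGFB1 at 13.8 ± 4.04 and SMAD7 at 13.1 ± 1.28 lay within each other's spread. SMAD6 and SMAD7 thereby reached the 39.7th and 33.8th percentile.

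Ribosome density, the ratio of footprints to input, addressed whether translation of these mRNAs changed beyond their abundance. In the interaction test of edgeR over all 12 libraries 0 members were called higher and 0 lower, against 0.0938% and 0.816% of all genes, or 0.91% together. The adjusted p values of the members ran from 0.462 to 0.988. At an unadjusted p under 0.05 there was 1 member of 10, SMAD4, against 8.81% of all genes, and DESeq2 and limma-trend called 0 members as well. The median change of the members was 0.13, beside 0.07 over all genes tested. The interval of the ID3 change ran from -0.76 to 0.38, that of ID2 from -0.38 to 0.79 and that of BMP4 from -0.91 to 1.11. The widest was that of SMAD7, from -0.12 to 2.31 around 1.10, with few DMSO reads behind it. For TGFB1 the change was -0.24 (SE 0.32, adjusted p = 0.932).

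**Figure D3:**
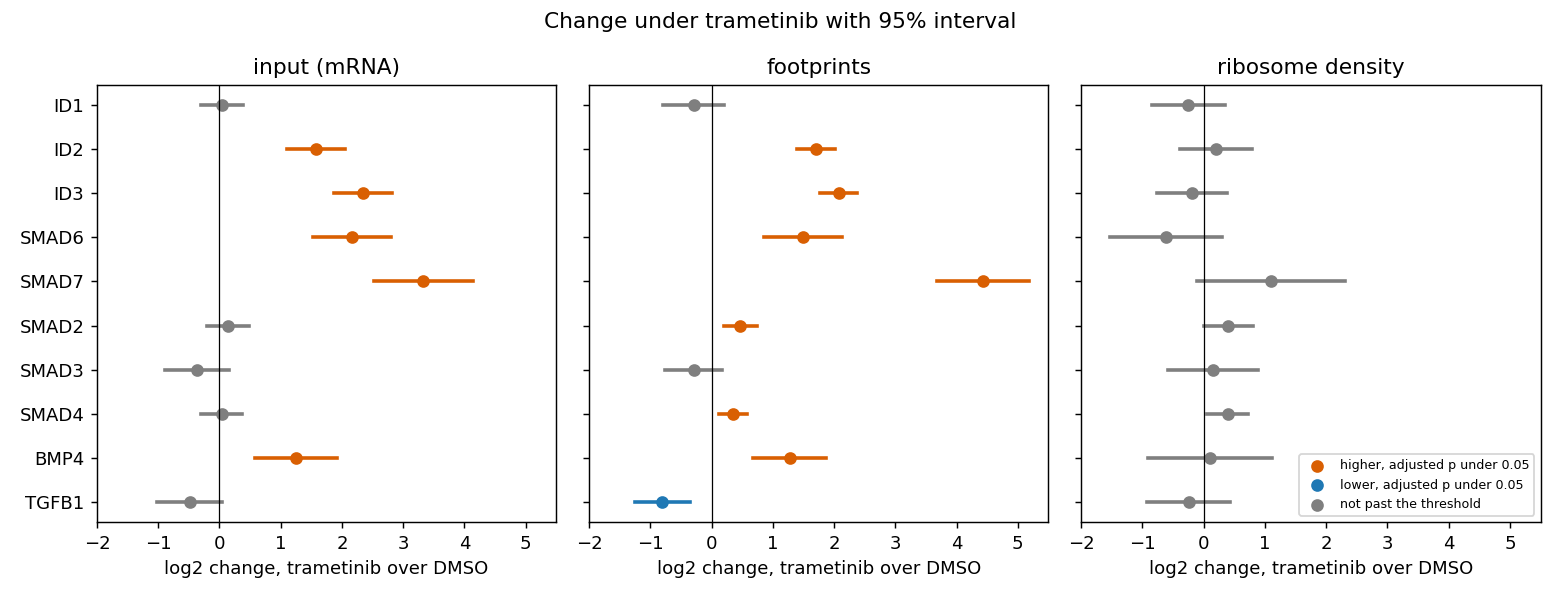
Log2 change, trametinib over DMSO, of each gene in input, footprints and ribosome density, as points with 95% intervals. ID2, ID3, SMAD6, SMAD7 and BMP4 lie above 0 in input and footprints, whereas for ribosome density no gene passes the threshold and the changes run from -0.62 for SMAD6 to 1.10 for SMAD7.

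Density was also computed for each dish, taking libraries of the same treatment and number as a pair. SMAD4 had densities of 0.862, 0.843 and 0.866 in DMSO and 1.203, 1.06 and 0.962 in trametinib. SMAD2 had 0.973, 0.946 and 1.10 in DMSO and 1.23, 1.33 and 1.24 in trametinib. In these 2 members all trametinib dishes lay above all DMSO dishes, as in 7.92% of all genes, and the other 8 overlapped. The reverse order, found in 9.03% of all genes, occurred in 0 members. The log2 change was 0.39 for SMAD4 (SE 0.16, adjusted p = 0.462) and 0.40 for SMAD2 (SE 0.19, adjusted p = 0.568).

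The genes differed far more from each other in density than they did between treatments. In DMSO the ID genes were densely covered, with 3.42 ± 1.32 footprints per input read on the normalized scale for ID3, 3.20 ± 0.756 for ID1 and 2.27 ± 0.472 for ID2 (SD, n = 3), at the 97.1st, 96.4th and 89.5th percentile. The ID values did not differ beyond their spread. The median of all tested genes was 1.05. SMAD3 at 1.29 ± 0.401, TGFB1 at 1.25 ± 0.327, SMAD2 at 1.01 ± 0.0848 and SMAD4 at 0.857 ± 0.0120 lay near it. BMP4 at 0.505 ± 0.0674, SMAD6 at 0.307 ± 0.158 and SMAD7 at 0.154 ± 0.163 were sparsely covered, at the 15.4th, 5.35th and 1.14th percentile. In trametinib BMP4 stood at 0.501 ± 0.0631, SMAD6 at 0.171 ± 0.0288 and SMAD7 at 0.230 ± 0.00667, while ID3, ID1 and ID2 stood at 2.65 ± 0.320, 2.57 ± 0.130 and 2.50 ± 0.724.

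**Figure D4:**
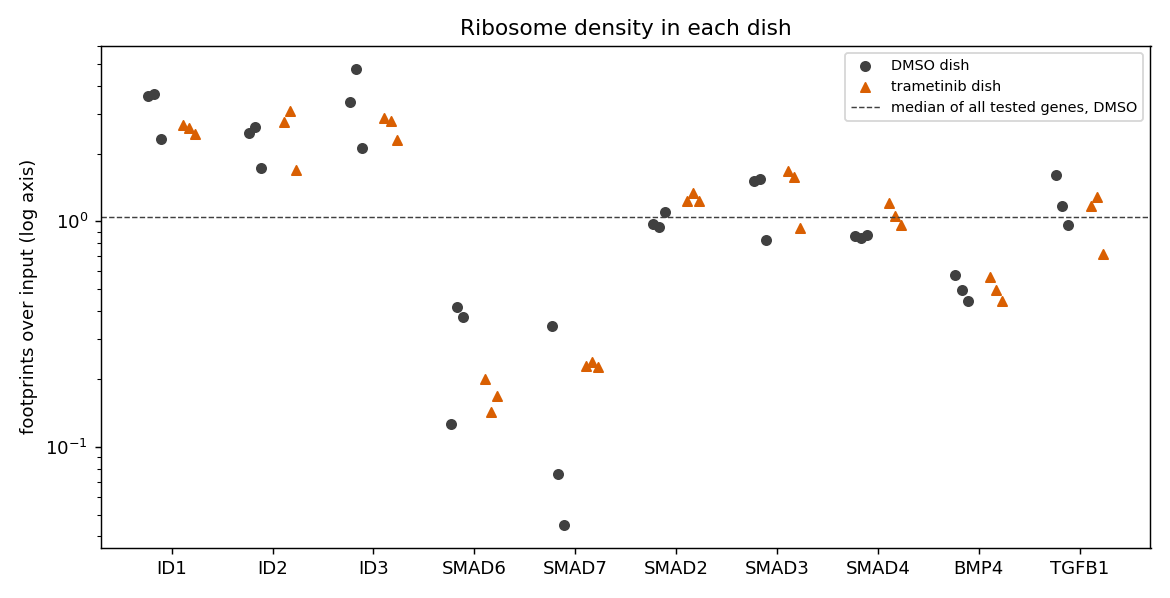
Ribosome density (normalized footprint count over normalized input count, log axis) of each gene in the 3 DMSO dishes (circles) and 3 trametinib dishes (triangles), with the median of all tested genes in DMSO, 1.05, as a dashed line. The ID genes lie above the line and BMP4, SMAD6 and SMAD7 below it under both treatments.

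Other genes of the pathway were taken from lists by role. Of 98 listed genes besides the members, 88 were in the table and 55 passed the filter on low counts. In input 16 of them rose and 5 fell, against 15.4% and 16.8% of all genes tested. In footprints 22 rose and 7 fell, against 23.9% and 25.6%. For ribosome density 0 were called, against 0.91% of all genes. There 4 of 55 had an unadjusted p under 0.05, against 8.81% of all genes, and DESeq2 and limma-trend called 0. SMAD9, ACVRL1 and ATOH8, 3 of the genes that rose in both assays, passed the filter only through the trametinib input libraries. As with SMAD7, their being called is not independent of the filter, nor are the counts that include them. LTBP2, which fell in input, and TGIF2, which fell in footprints, passed it only through DMSO input, where they were higher on average. The same limit holds for them. The share that rose in input, 16 of 55, was 10 of 55 without trametinib input replicate 2, and the 5 that fell there were 3 without trametinib input replicate 1 or 2. The 7 that fell in footprints were 2 without trametinib footprint replicate 1 and 3 without trametinib footprint replicate 2. The median log2 change of the 55 genes was 0.13 in input and 0.30 in footprints.

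Among the 8 SMADs, members included, 4 rose in input and 6 in footprints, against 15.4% and 23.9% of all genes tested. SMAD3 and SMAD5 passed the threshold in neither assay. SMAD9, a receptor-activated SMAD of the BMP branch that passed the filter only through trametinib input (13, 11 and 4 input reads in DMSO), went from 21.0, 18.9 and 25.4 normalized footprint counts in DMSO to 82.3, 82.2 and 82.3 in trametinib, a change of 1.90 (SE 0.16, adjusted p = 2.86e-05). SMAD1 of the same branch rose by 0.81 in footprints (SE 0.11, adjusted p = 3.45e-04) and by 0.84 in input (SE 0.21, adjusted p = 0.0094). SMAD5, the remaining BMP SMAD, was at -0.04 in footprints (SE 0.10, adjusted p = 0.778). The summed normalized footprints of SMAD1, SMAD5 and SMAD9 went from 679.5 ± 42.9 to 909.3 ± 14.1 (SD, n = 3), and those of SMAD2 and SMAD3 from 1068 ± 181.2 to 1271 ± 96.8, where the groups overlapped.

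Of 9 receptors tested 3 rose in input and 6 in footprints, against 15.4% and 23.9% of all genes. ACVRL1, a type I receptor for BMP9 and BMP10, rose by 1.68 in footprints (SE 0.28, adjusted p = 0.00122) from low counts of 50, 17 and 23 to 134, 111 and 76 reads. It had 7, 3 and 1 input reads in DMSO and 19, 18 and 11 in trametinib, and so entered the test only through the group in which it was higher. The type II receptor BMPR2 rose by 1.09 (SE 0.12, adjusted p = 1.63e-04), BMPR1A by 0.70 (SE 0.15, adjusted p = 0.00519) and TGFBR2 by 0.67 (SE 0.14, adjusted p = 0.00434). Of 3 coreceptors tested 1 rose and 0 fell in input, against 15.4% and 16.8% of all genes. In footprints 1 rose and 1 fell, against 23.9% and 25.6%. The one that rose was TGFBR3, betaglycan, by 1.64 in footprints (SE 0.23, adjusted p = 4.6e-04).

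Among 5 secreted or membrane antagonists tested 3 rose in both assays, where 15.4% of all genes rose in input and 23.9% in footprints. In footprints CHRD, chordin, rose by 1.37 (SE 0.16, adjusted p = 1.87e-04). The pseudoreceptor BAMBI rose there by 1.36 (SE 0.17, adjusted p = 2.74e-04) and the follistatin relative FSTL3 by 1.04 (SE 0.17, adjusted p = 0.00114). Of the 5 genes tested for the latent TGF-beta complex, 2 rose and 1 fell in input, against 15.4% and 16.8% of all genes. In footprints 3 rose and 0 fell, against 23.9% and 25.6%. THBS1, whose product thrombospondin-1 can activate latent TGF-beta, rose there by 2.72 (SE 0.26, adjusted p = 5.83e-05) and LTBP1 by 0.98 (SE 0.15, adjusted p = 9.14e-04). Several of the matching input calls rested on single libraries or on the test and filter. With all libraries kept, the DESeq2 test gave adjusted p values of 0.0614 for BAMBI, 0.106 for FSTL3 and 0.0727 for TGFBR2 in input, and edgeR gave 0.0541 for FSTL3 with the filter on all libraries and 0.0672 for TGFBR2 with no filter. The input calls of BAMBI and TGFBR3 were lost without DMSO input replicate 2, trametinib input replicate 2 or trametinib input replicate 3, with adjusted p values of 0.0672, 0.103 and 0.0632 for BAMBI and 0.0864, 0.0661 and 0.129 for TGFBR3. The input call of FSTL3 was lost without any single input library other than DMSO replicate 1, up to an adjusted p of 0.163. That of TGFBR2 was lost without any single input library other than DMSO replicate 3, up to 0.129, and that of LTBP1 without trametinib input replicate 1 (0.122).

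Of 18 SMAD regulators tested 2 were higher and 2 lower in input, against 15.4% and 16.8% of all genes. In footprints 5 were higher and 4 lower, against 23.9% and 25.6%. ZFYVE9, which anchors SMAD2 and SMAD3 at receptors, rose by 0.70 in footprints (SE 0.10, adjusted p = 6.95e-04), and the antiproliferative TOB1 rose by 0.66 (SE 0.12, adjusted p = 0.0023). The corepressor TGIF2, which passed the filter only through DMSO input, fell by 0.71 (SE 0.20, adjusted p = 0.0165). That call was lost without trametinib footprint replicate 1 (0.0576) or replicate 3 (0.0582). SMURF2, a ubiquitin ligase recruited to receptors by SMAD7, fell by 1.07 in input (SE 0.15, adjusted p = 1.57e-04) and by 0.64 in footprints (SE 0.18, adjusted p = 0.0153), the latter call being lost with library totals (0.0502) and without trametinib footprint replicate 1 (0.0615) or replicate 2 (0.0592).

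Target genes other than the ID genes went both ways. In input 3 of 6 were higher and 1 lower, against 15.4% and 16.8% of all genes. In footprints 2 were higher and 1 lower, against 23.9% and 25.6%. ATOH8, a BMP-induced bHLH gene, was counted 0, 1 and 1 times in DMSO input and 14, 19 and 20 times in trametinib input, a ratio of 30.1 with a counting interval of 7.92 to 255. In footprints its counts of 10, 6 and 7 became 99, 77 and 81, a log2 change of 3.31 (SE 0.25, adjusted p = 1.47e-05). It too was tested only because of its trametinib input counts. FN1, fibronectin, rose by 1.57 in footprints (SE 0.14, adjusted p = 3.65e-05). MSX1, a homeobox target of BMP, fell by 0.93 (SE 0.11, adjusted p = 2.16e-04), and its input call was lost without DMSO input replicate 3 (0.156) or trametinib input replicate 1 (0.154) or 2 (0.145).

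GDF15, a divergent member of the superfamily, had 9804, 3729 and 1812 normalized footprint counts in DMSO and 171.4, 164.8 and 145.6 in trametinib. It fell by 5.00 on the log2 scale (SE 0.58, adjusted p = 1.8e-04). It was highest in DMSO replicate 1, and without that library the footprint change was -4.09, still past the threshold.

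**Figure D5:**
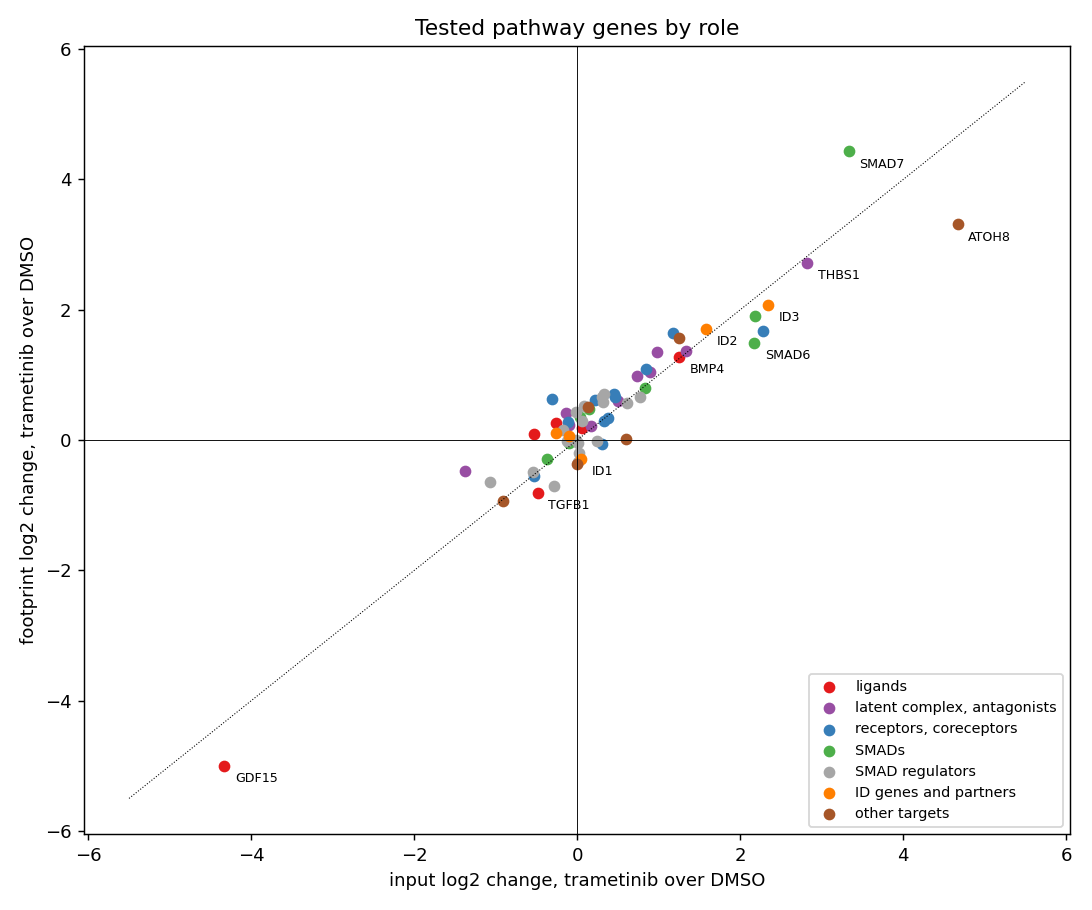
Log2 change in footprints (vertical) against input (horizontal), trametinib over DMSO, for the 65 tested pathway genes coloured by role, with a dotted line of equal change. SMAD7, ATOH8, THBS1 and ID3 lie at the upper right, ID1 near 0, and GDF15 at the lower left.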

How the data were processed

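Per the sources of the study, adapters were removed, reads matching rRNA and tRNA were discarded with Bowtie 1.2.2, and reads inside open reading frames of a single gene symbol (Gencode, GRCh38) were counted. The deposited table holds these counts of the authors for all 12 libraries and a normalized signal of the authors, in which a size factor divides each library (DESeq2 1.46.0). Size factors recomputed from the counts matched in 12 of 12 libraries within a relative tolerance of 1e-06. The table also has 6 columns of the authors' own comparisons, which were not used.

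Counts were tested with edgeR 4.0.16 (TMM scaling, quasi-likelihood F test) in R 4.3.3 for the 10663 genes that reached 10 counts in 3 or more input libraries, separately for input and footprints, and as the interaction of assay and treatment for ribosome density. Adjusted p values (Benjamini-Hochberg over all tested genes) under 0.05 were called. Standard errors are the log2 change over the square root of F. Because libraries were scaled to each other, a change common to all mRNAs cannot be seen. The procedure was tested on simulated data. DESeq2 1.42.0, limma 3.58.1, other scalings and filters, replicate blocks and left-out libraries were alternatives, and leaving out the DMSO libraries numbered 1 from both assays was added after seeing the data.

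The members and role lists were chosen with earlier results of these data known. All members were named. Of the other listed genes, those called in input or footprints were named in order of their absolute footprint change, up to 20 of 31. Any called for density were to be added. SMAD5, COL3A1 and LTBP2 were named after their values were seen. 1 gene of these lists is not reported here and was left out of all counts over them. Groups and replicate numbers came from the labels, which do not state whether replicates are separate cultures. The supplement of the study calls the replicates behind its fold changes biological. P-values measure the spread between these samples. Deviations from the group means of same-numbered DMSO and trametinib libraries correlated at 0.117, 0.133 and 0.294 in footprints. Each was over 0.1, the level set for taking the numbers as pairs, which the input libraries did not all reach. Input and footprints came from the same lysates and differently numbered libraries were not compared, so the correlations cannot decide the pairing. The fit without the block stayed the one reported. Replicate pairs of a group differed beyond counting error (chi-square per degree of freedom from 4.27 to 174). Promoter windows are RefSeq, and gene positions and coding lengths are Gencode v44, of the same build. Reads shared between symbols were not counted.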

Additional observations from a re-analysis of the deposited data

How the results depend on the processing

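With all libraries kept, 5 members rose and 0 fell in input, 7 rose and 1 fell in footprints and 0 were called for ribosome density under every alternative run (other scalings, filters, tests, threshold and replicate blocks), and no member changed direction. Leaving out 1 library at a time gave 5 higher in input, 5 to 7 higher and 1 to 2 lower in footprints, and 0 for density. Of the other pathway genes, 10 to 16 were then higher and 3 to 5 lower in input, 2 to 8 lower in footprints, and 3 were lower in footprints with library totals. Library totals raised the median footprint change by 0.178 and the density change by 0.106, and took the share of footprint calls that were higher from 48.3% to 64.8%. Over all genes 1069 to 1767 were higher in input without 1 library, against 1641. Density calls over all genes were the least stable: 10 higher became 5 with DESeq2 size factors, 27 with library totals (25.7% of calls against 10.3%), 6 with the filter on all libraries, 37 with the DESeq2 test (19.8%), 30 at an adjusted p under 0.1 (21.4%) and 1 to 12 without 1 library, and 87 lower became 150 with the DESeq2 test and 49 to 101 without 1 library. The density changes of MSX1 and SMAD1 turned to -0.016 and -0.025 with DESeq2 size factors and to -0.015 and -0.024 with the DESeq2 test, and those of THBS1 and TOB1 to 0.079 and 0.066 with library totals, all uncalled. The cause was not tested.

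The replicate block by number changed no member's call in either assay or for density. In footprints 24 instead of 22 other pathway genes then rose and 6 instead of 7 fell. In input, where 2 of the 3 same-numbered pairs correlated at 0.1 or less (0.068 and 0.0484, against 0.334), 18 instead of 16 rose, and BMPR1A gained an input call (adjusted p = 0.0422). No other call of a named gene changed under this block. A replicate block for each dish gave 31 higher and 127 lower densities over all genes and 0 members. Without both DMSO libraries numbered 1, 21 and 129 genes and 0 members were called for density, and the density changes of CHRD, FSTL3 and SMAD1 were -0.10, -0.01 and -0.14. Without 1 library the input change of ID1 ran from -0.066 to 0.189, uncalled. Density changes crossed 0 in the same way, uncalled, over -0.315 to 0.44 for BMP4, -0.06 to 0.429 for SMAD3, -0.457 to 0.019 for ID1, -0.073 to 0.344 for ID2, -1.375 to 0.313 for GDF15, -0.283 to 0.223 for THBS1, -0.573 to 0.079 for SMAD9, -0.109 to 0.249 for CHRD, -0.035 to 0.489 for FSTL3, -0.36 to 0.396 for MSX1, -0.178 to 0.157 for SMAD1 and -0.196 to 0.069 for TOB1. Few DMSO reads stand behind the densities of SMAD6 (42 in input and 56 in footprints, summed over 3 libraries) and SMAD7 (13 and 7).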
